A study of Mus musculus with 2 samples.

Results

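Interferon-response genes were examined in imiquimod-treated mouse skin, together with Tlr7, the endosomal receptor that senses single-stranded RNA and imiquimod. They were chosen by name. Of the 9 symbols chosen, 7 were found among the 19465 genes measured, namely Irf7, Ifit1, Ifit3, Rsad2, Ifi44, Usp18 and Tlr7, and Isg15 and Mx1 were not analysed here. The first 6 are called the response genes, and their unique molecular identifiers (UMIs, 1 for each captured probe molecule) were also summed.

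Spatial transcriptomes came from 2 back skin sections, 1 from an S1pr2 f/f mouse and 1 from an S1pr2 f/f K14-Cre mouse. In the second genotype the keratin 14 promoter drives Cre, which acts in keratinocytes and is meant to delete S1pr2, the gene of sphingosine-1-phosphate receptor 2, there, while both mice carried the floxed alleles. Both were treated with imiquimod (IMQ) in the same way: after depilation of the back at 8 weeks of age, 62.5 mg of cream with 5% IMQ was given daily for 7 days. Untreated skin was not analysed here, so no level below is an induction by IMQ. With 1 section for each genotype no test between genotypes was possible, and genotype, mouse, skin piece and library cannot be told apart.

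Type I interferons bind the receptor of Ifnar1 and Ifnar2, and the kinases Jak1 and Tyk2 then activate transcription factors such as Stat2, which joins Irf9 at interferon-stimulated response elements in promoters. Tlr7 lies upstream: it signals through Myd88 to Irf7, a transcription factor that switches on interferon genes and is itself interferon-induced. Among the other genes, Ifit1 and Ifit3 encode proteins that bind foreign RNA or the complexes that do so, Rsad2 encodes the antiviral enzyme viperin, Usp18 removes Isg15 from proteins and dampens the receptor, and Ifi44 is an interferon-induced gene. In skin, plasmacytoid dendritic cells and macrophages are known carriers of Tlr7, and imiquimod cream is a standard trigger of psoriasis-like inflammation.

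Promoter windows were available for 5 of the 7 genes, from RefSeq on GRCm38.p6, each running from 250 bases before the transcription start to 50 bases after it. The response element was searched as GAAANNGAAA on both strands (TTTCNNTTTC when read on the other strand), and no other motif was searched. It was found in 3 of the 5 windows, with 2 matches for Ifit1, 2 for Ifit3 and 1 for Rsad2, and in 1131 of all 32851 windows of the same length (3.44%). The windows of Irf7 and Ifi44 did not hold these letters. The stretches around the matches are printed to show the element in these 3 genes. They read along the gene, with the matches in capitals, and lie at chr19:34640755-34640843 (plus strand), chr19:34583343-34583446 (plus strand) and chr12:26456533-26456602 (minus strand).
Ifit1: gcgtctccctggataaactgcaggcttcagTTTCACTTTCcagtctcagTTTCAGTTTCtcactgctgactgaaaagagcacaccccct
Ifit3: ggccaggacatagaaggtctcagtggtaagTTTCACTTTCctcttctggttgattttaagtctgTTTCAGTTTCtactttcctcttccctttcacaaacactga
Rsad2: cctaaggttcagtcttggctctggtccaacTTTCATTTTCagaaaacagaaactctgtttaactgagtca
The matches began 104 and 85 bases before the start of Ifit1, 156 and 122 before that of Ifit3 and 120 before that of Rsad2, counted from the start used for the window, which for Ifit3 lies inside the gene interval given below. A match is a description of letters and was not tested for binding. Ifit1 (chr19:34640889-34650009) and Ifit3 (chr19:34583119-34588982) lie near each other on chromosome 19, and Rsad2 (chr12:26442743-26456452), Irf7 (chr7:141263183-141266499), Ifi44 (chr3:151730922-151749910), Usp18 (chr6:121245906-121270917) and Tlr7 (chrX:167303380-167330574) lie on other chromosomes.

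The S1pr2 f/f section held 1282 spots and 5315351 UMIs, with a median of 3542 UMIs a spot, and the S1pr2 f/f K14-Cre section 981 spots and 2845826 UMIs, with a median of 2319. Levels are given as CPM, the UMIs of a gene per 1000000 UMIs of the same spots. The 95% intervals (for levels exact Poisson, for ratios conditional binomial, for shares Clopper-Pearson) hold the error of counting alone, not the spread between mice. A spot covers several cells, so fewer cells of a type and less RNA per cell cannot be told apart, and the 357 barcodes common to both sections are array positions and not cells. S1pr2 itself had 154 UMIs in the S1pr2 f/f section (29.0 CPM) and 54 in the K14-Cre section (19.0 CPM), with 20 and 2 in the spots with epidermis markers, a log2 ratio of -1.53 there (-4.67 to 0.51). By the share of layer markers the ratio was -0.47 (-1.68 to 0.56) in epidermis spots and -1.79 (-3.16 to -0.66) in dermis spots, so the lower count was not particular to the epidermis. Whether its probes lie in the deleted part was not given in the sources used here. The background of low counts was read from 1229 odorant, pheromone, taste and trace amine receptor genes, which skin should hardly express. They summed to 2730 CPM in the S1pr2 f/f section and to 7369 CPM in the K14-Cre section, a mean of 11.8 and 17.1 UMIs per gene, so the K14-Cre section had the higher background at the lower depth.

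All 7 genes were sparse. Irf7 had 115 UMIs in the S1pr2 f/f section (21.6 CPM, in 87 spots, 6.79%) and 66 in the K14-Cre section (23.2 CPM, in 37 spots, 3.77%). Ifit3 had 89 UMIs (16.7 CPM) and 69 UMIs (24.2 CPM). Tlr7 had 74 UMIs (13.9 CPM) and 56 UMIs (19.7 CPM). No gene was seen in more than 6.79% of the spots of a section. For Usp18 there were 78 UMIs (14.7 CPM) and 40 UMIs (14.1 CPM). Rsad2 had 75 UMIs (14.1 CPM) in the S1pr2 f/f section and 21 (7.38 CPM) in the other, and Ifit1 had 65 (12.2 CPM) and 22 (7.73 CPM). Ifi44 had the fewest, with 30 UMIs (5.64 CPM) and 19 UMIs (6.68 CPM). Each member of the S1pr2 f/f section lay above at least 99.0% of the receptor genes. In the K14-Cre section this held only in part: 70.9% of the receptor genes lay below Ifit1, 67.9% below Rsad2 and 61.9% below Ifi44, against 97.7% or more for the other 4 genes, so the counts of these 3 genes there are near background.

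**Figure D1:**
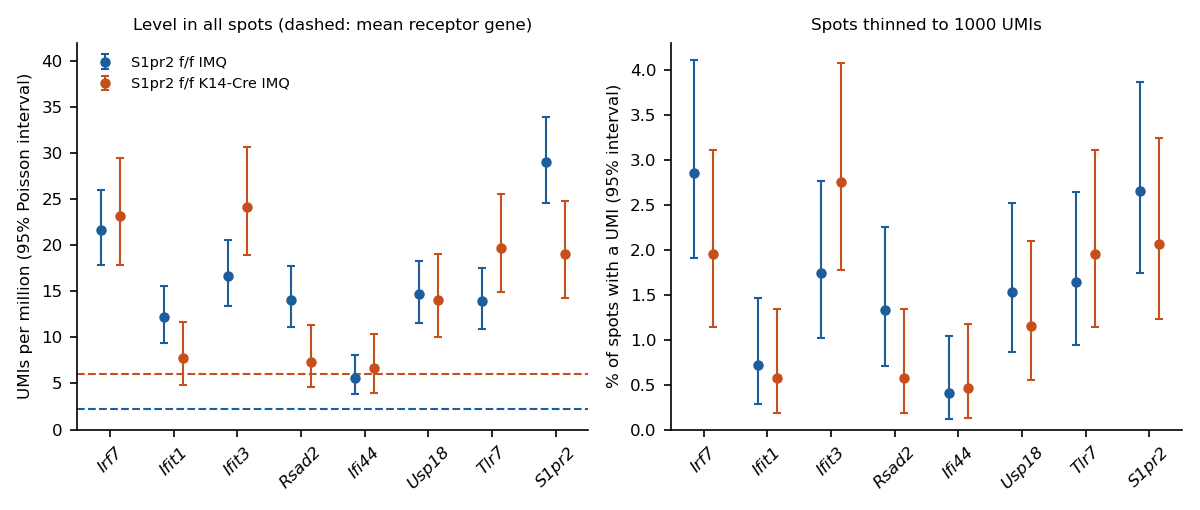
Left, CPM of each gene, with S1pr2 last, over all spots of each section (points) with exact Poisson 95% intervals and, dashed, the mean receptor gene of the same section; right, the percentage of spots with at least 1 UMI after each spot was thinned to 1000 UMIs, with Clopper-Pearson 95% intervals. Ifit1, Rsad2 and Ifi44 lie close to the dashed line of the K14-Cre section, and the intervals of both sections overlap for most genes.

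Over all spots the summed response genes did not differ between the sections beyond counting error. They had 452 UMIs in the S1pr2 f/f section, or 85.0 CPM (77.4 to 93.2), and 237 in the K14-Cre section, or 83.3 CPM (73.0 to 94.6), a log2 ratio of K14-Cre over S1pr2 f/f of -0.03 (-0.26 to 0.20). At least 1 response gene UMI was seen in 231 S1pr2 f/f spots (18.0%) and in 134 K14-Cre spots (13.7%), and after thinning to 1000 UMIs in 7.67% of 978 and in 7.01% of 870 spots. Single genes went both ways. Ifit3 was higher in the K14-Cre section by a log2 ratio of 0.53 (0.06 to 1.00), and Rsad2 was lower by -0.94 (-1.71 to -0.22). Without the spots around the maximum of Ifit1 and Rsad2 described further on, the sum was at 0.31 (0.05 to 0.56). With the receptor background also taken off, it was at -0.25. Ifit3 was at 0.95 (0.44 to 1.46) and Rsad2 at -0.42 (-1.32 to 0.42) without these spots. Over all spots the interval included 0 for Ifit1 at -0.66 (-1.43 to 0.06), Tlr7 at 0.50 (-0.03 to 1.02), Ifi44 at 0.24 (-0.67 to 1.12), Irf7 at 0.10 (-0.36 to 0.55) and Usp18 at -0.06 (-0.65 to 0.51).

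No member was past 2-fold in either direction, against 26.1% higher in the K14-Cre section and 4.69% lower among the 16838 genes that reached 30 UMIs over both sections. The median log2 ratio was 0.10 over the members and 0.34 over all these genes. Of the 529 receptor genes with as many UMIs 77.3% were past 2-fold higher, and the part of background in the other higher calls was not tested. The near equality of the sums depended on the scaling. With the mean receptor gene taken off each response gene, the levels were 71.7 and 47.3 CPM, a log2 ratio of -0.60. With TMM factors, which moved the median of all genes from 0.34 to -0.03, the log2 ratio of the sum was -0.40. Ifit1 was then at -1.03 and Rsad2 at -1.31, and the share of all genes past 2-fold with these factors is not given here. Of the genes near background, Ifit1 was at -2.53, Rsad2 at -3.10 and Ifi44 at -2.33 with the mean receptor gene taken off. These 3 values rest on only 4.94, 3.94 and 1.94 K14-Cre UMIs left above the mean receptor gene and have no interval, so their size cannot be relied on. Ifit3, at 0.53 as counted, was at 0.16 with TMM factors and at 0.33 with the mean receptor gene taken off. For Tlr7 the higher level rested on spots with several UMIs: when each spot was counted once, the log2 ratio was -0.13 in place of 0.50.

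To see which layers carried the genes, the spots of each section were clustered without the members and without any interferon pathway gene, and a region was named for the tissue whose marker list was enriched in it. The S1pr2 f/f section had regions with markers of epidermis (278 spots), sebaceous gland (186), dermis (240) and muscle (149), and 2 shallow clusters of 210 and 173 spots remained unnamed. In the region with dermis markers all 9 of these markers were enriched, but so were 8 of 8 macrophage, 5 of 5 mast cell, 4 of 4 blood and 6 of 7 fat markers, and its leading genes by fold were Hbb-bt, Alas2, Mup11, Fads2 and Mup17, so the name stands for a marker list and not for a cell type. The K14-Cre section had regions with markers of epidermis (121 spots), sebaceous gland (96), developmental muscle (162, led by Tnnc1, Myh8, Tnni1, Tnnt2 and Myl4) and muscle (332), clusters of 130 and 133 spots remained unnamed, and no region took the dermis name. Its sebaceous region, led by Rarres1, Dct, Gsdma3, Cers4 and Klk14, had 3 of the 5 gland markers enriched, with 3 of 15 epidermis and 3 of 3 plasmacytoid dendritic cell markers.

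Most response gene UMIs of the S1pr2 f/f section lay outside the epidermis. They reached 170 CPM in the region with dermis markers (199 UMIs), 95.4 CPM in muscle (83 UMIs), 69.9 CPM in the sebaceous region (105 UMIs) and 26.6 CPM in the epidermis (37 UMIs). The dermis region held 44.0% of the response gene UMIs in 22.0% of the section's UMIs, a level 2.78-fold that of the other spots (log2 1.48, 1.20 to 1.75), beside 1.42-fold for the receptor genes. The epidermis had 0.251-fold the level of the other spots (log2 -1.99, -2.52 to -1.51), beside 0.580-fold for the receptor genes. The 96 spots of a cluster within it, led by Arg1, Kctd4 and the cornified layer genes Lce3a, Sprr2i and Sprr2f, had no response gene UMI. This allows up to 19.6 CPM.

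Among the named regions the dermis region had the highest level of each member but Ifi44, and the order of the others varied. Rsad2 had 34.2 CPM in the dermis region and 8.44 CPM elsewhere, the widest gap at 4.05-fold. Ifit1 had 26.5 and 8.20 CPM, with its lowest level among the named regions, 3.45 CPM, in muscle. Irf7, at 41.9 and 15.9 CPM, Usp18, at 29.0 and 10.6 CPM, and Ifit3, at 31.6 and 12.5 CPM, were between 2.52-fold and 2.74-fold higher there. Tlr7 had 24.8 CPM in the dermis region, 15.3 in the sebaceous region, 10.3 in muscle and 3.59 in the epidermis. In the unnamed cluster of 173 spots it had 26.7 CPM (5 UMIs). Ifi44 had 6.83 CPM in the dermis region, 5.31 CPM elsewhere and its highest level, 10.3 CPM, in muscle. Thus 6 of 7 members were at least 2-fold higher in the dermis region, against 12.9% of the 12322 genes with at least 30 UMIs, with a median log2 ratio of 1.40 beside 0.21 over all these genes. The same 6 were at least 2-fold lower in the epidermis, against 32.0% of these genes, with a median of -1.99 beside -0.53. Part of the dermis excess, most of all that of Rsad2 and Ifit1, lay at 1 site, described further on. The count of 6 of 7 members without this site is not given here. In dermis spots by the share of layer markers, Rsad2 had 29.9 CPM with this site and 13.1 without it, and Ifit1 21.5 and 9.02. Over all spots without the site they had 8.71 and 6.14 CPM. Irf7, Ifit3, Usp18 and Tlr7 had 33.8, 33.0, 27.6 and 26.9 CPM in dermis spots with the site. Without it they had 27.9, 22.1, 23.8 and 28.7 CPM, against 19.2, 13.3, 12.1 and 14.7 over all spots, dermis spots included.

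**Figure D2:**
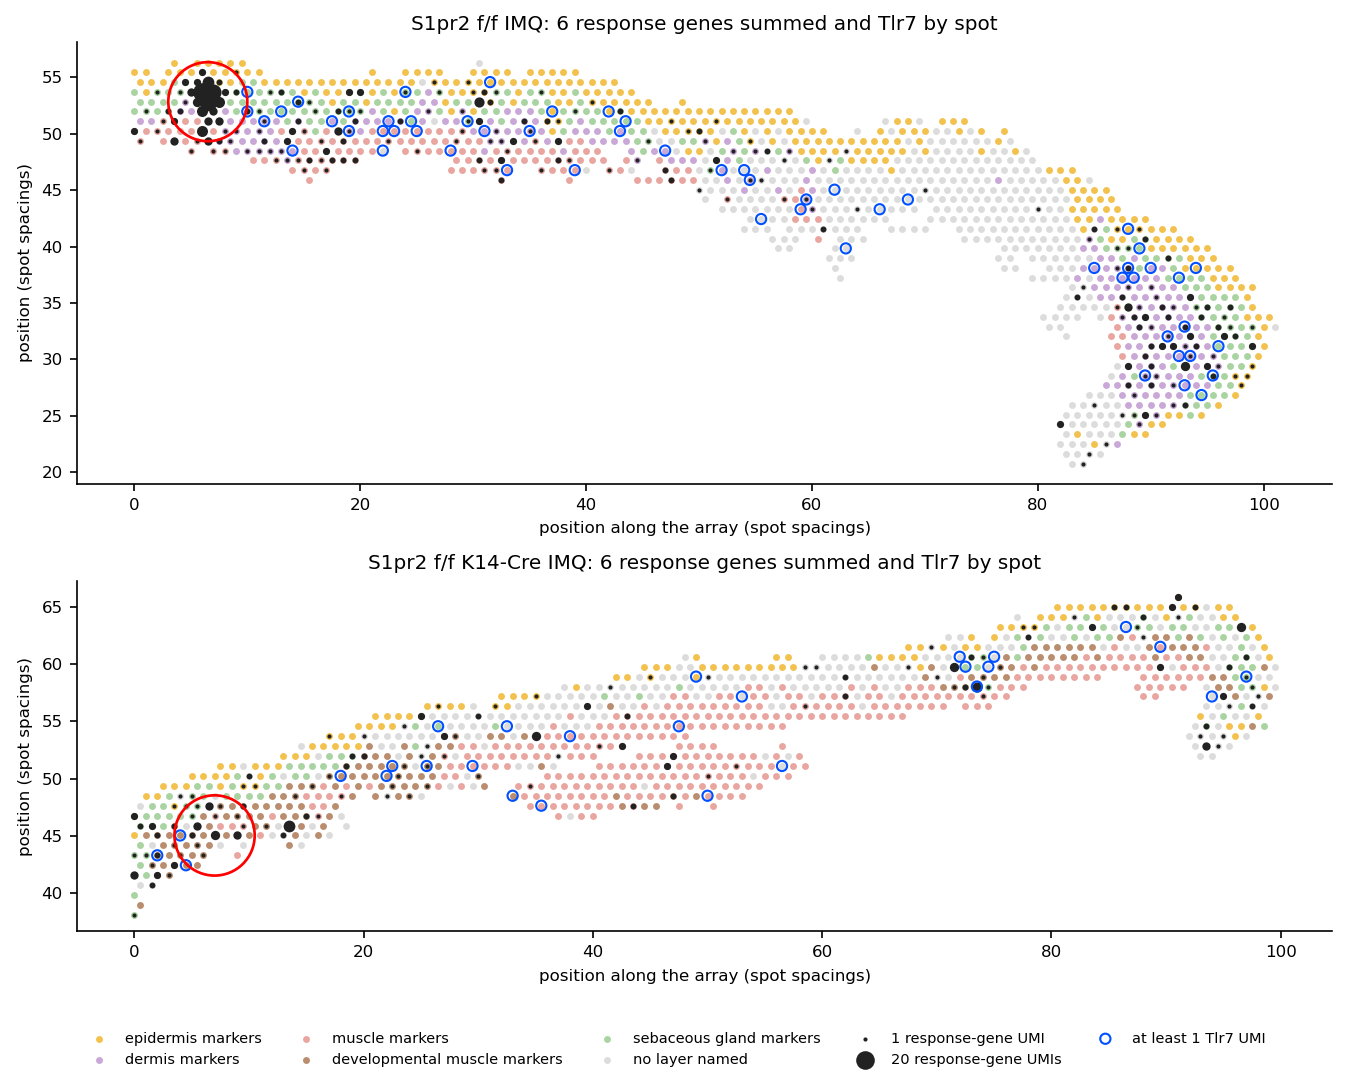
Position of the spots of each section on the array in spot spacings, coloured by the region named from markers; black dots scale with the response gene UMIs of a spot, blue rings mark spots with at least 1 Tlr7 UMI, and the red circle marks the 3 spacings around the spot with most Ifit1 and Rsad2 UMIs. In the S1pr2 f/f section the largest dots crowd inside the circle, where no blue ring lies; 79 S1pr2 f/f and 11 K14-Cre spots away from the main tissue, with 2 and 0 response gene UMIs, are not drawn.

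The regions of the K14-Cre section were read in the same way. The summed response genes had 94.4 CPM in the developmental muscle region (69 UMIs), 88.9 CPM in the sebaceous region (37 UMIs), 82.1 CPM in the epidermis (33 UMIs) and 52.1 CPM in muscle (44 UMIs). The first 3 lay within each other's intervals, and the unnamed clusters had 114 and 125 CPM. Muscle was lower than the other spots, with a log2 ratio of -0.89 (-1.40 to -0.41), but its receptor genes were lower still, at 0.288-fold. Tlr7 had 24 of its 56 UMIs in the developmental muscle region, or 32.8 CPM against 15.1 CPM elsewhere (log2 1.12, 0.29 to 1.93), though these lay in 8 spots, and 1 UMI in the epidermis (2.49 CPM). It had 40.3 CPM (9 UMIs) in the unnamed cluster led by Ublcp1 and 31.5 CPM (10 UMIs) in the shallower of the muscle clusters. Ifit3 had 67.2 CPM (15 UMIs) in the Ublcp1 cluster and 20.6 CPM elsewhere (log2 1.71, 0.77 to 2.55), beside 1.43-fold for the receptor genes. The developmental muscle region also had 4 of 8 macrophage and 5 of 9 dermis markers enriched. Only Irf7, Ifit3, Usp18 and Tlr7 reached 30 UMIs in this section, and of these 4 only Tlr7 was at least 2-fold higher in the developmental muscle region, against 7.17% of 12851 genes. It alone was at least 2-fold lower in the epidermis, against 24.3% of these genes. Ifi44 had 8 of its 19 UMIs in the sebaceous region, where the receptor genes were 1.86-fold higher than elsewhere.

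**Figure D3:**
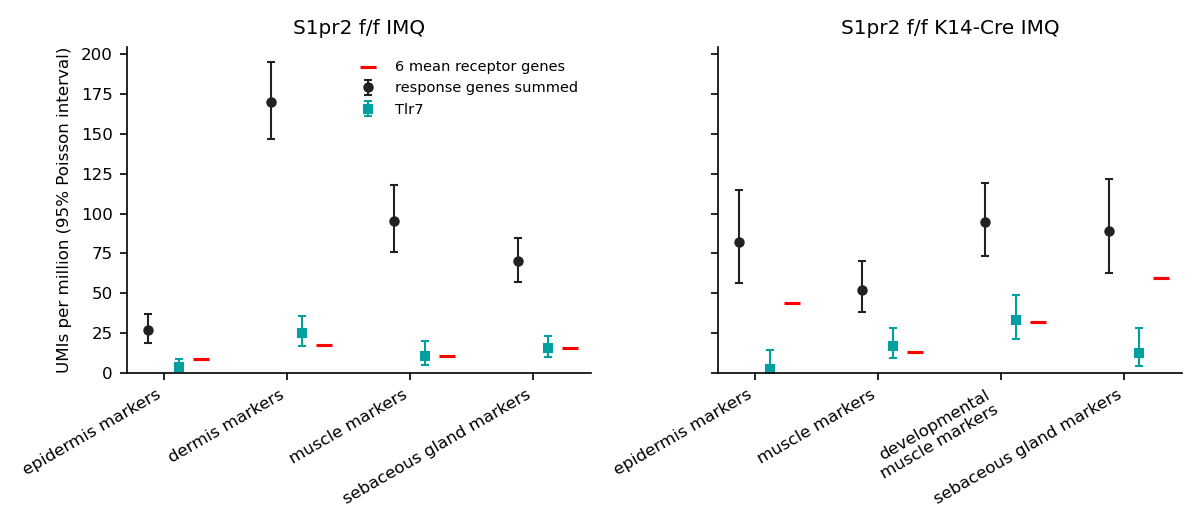
CPM of the summed response genes (black) and Tlr7 (teal squares) in each region with exact Poisson 95% intervals, and the level that 6 mean receptor genes reach in the same spots (red). In the S1pr2 f/f section the dermis region stands at 170 and the epidermis at 26.6; in the K14-Cre section 3 regions lie between 82.1 and 94.4, with red lines nearer to the black points.

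The epidermis itself was compared between the sections, as a layer of keratinocytes, in which the Cre acts. Whether the Cre also acted in other regions was not tested. The response genes had 26.6 CPM in the S1pr2 f/f epidermis and 82.1 CPM in the K14-Cre epidermis, a ratio of 3.09 (1.87 to 5.08). The receptor genes of the same spots had 1780 and 9001 CPM, a ratio of 5.06. Above the mean receptor gene, the response genes had 17.9 and 38.2 CPM, or 24.9 and 15.3 UMIs, and the part of the background in the difference was not tested. The counts per gene were small: Ifit3 had 10 and 11 UMIs, Usp18 had 6 and 7, Irf7 had 5 and 6, Rsad2 had 5 and 5, Ifi44 had 5 and 4, and Ifit1 had 6 and 0. Tlr7 had 5 UMIs and 1 UMI. These counts came from 1393105 UMIs of the S1pr2 f/f spots and 401866 of the K14-Cre spots, so like counts are unlike levels. The ratio of CPM was 4.16 (1.06 to 17.2) for Irf7, 4.04 (1.16 to 14.6) for Usp18 and 3.81 (1.47 to 10) for Ifit3. It was 3.47 (0.798 to 15.1) for Rsad2, 2.77 (0.55 to 12.9) for Ifi44 and 0.693 (0.0147 to 6.2) for Tlr7. All these intervals included 5.06, the ratio of the receptor genes. The interval of Ifit1, which had no K14-Cre UMI, reached only up to 2.94. In epidermis spots by the share of layer markers the summed genes had a ratio of 1.91 (1.38 to 2.62), beside 4.52 for the receptor genes. The log2 ratio of the summed genes was 1.63 here, but 0.77 in the uppermost 2 spots of each array column and 3.88 with coarser clusters.

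The other layers went both ways. The sebaceous region had 69.9 CPM in the S1pr2 f/f and 88.9 CPM in the K14-Cre section (log2 0.35, -0.24 to 0.90). In muscle the response genes were lower in the K14-Cre section, 52.1 against 95.4 CPM (log2 -0.87, -1.44 to -0.33), while the receptor genes were higher by 0.32. These muscle regions were unlike. The S1pr2 f/f region had 5 of 6 developmental muscle markers enriched, and each K14-Cre muscle cluster had 0 of 6. When each spot was given to the layer of which it held most marker UMIs relative to all spots, so that a dermis class existed in both sections (with 228 and 159 spots within 1.25-fold of a second layer), the dermis spots had 150 CPM in the S1pr2 f/f section and 130 CPM in the K14-Cre section (log2 -0.20, -0.63 to 0.21). Rsad2 had 39 UMIs against 4 (log2 -1.88, -3.82 to -0.41), and Ifit1 had 28 against 3 (log2 -1.82, -4.18 to -0.12), whereas Tlr7 had 35 against 18 (log2 0.45, -0.46 to 1.31). Without the spots around the Ifit1 and Rsad2 maximum the log2 ratio in dermis spots was 0.32 (-0.16 to 0.79) for the response genes, -0.58 (-2.62 to 1.05) for Rsad2 and -0.45 (-2.93 to 1.47) for Ifit1. In the fat spots the summed response genes had 109 CPM against 35.9 CPM (log2 -1.60, -2.52 to -0.76). Muscle spots of this kind, with developmental muscle as a class of its own, had 86.9 against 39.5 CPM (log2 -1.14, -1.87 to -0.45).

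Depth in the skin was also read as the distance from the nearest spot with epidermis markers. With distance the response genes of the S1pr2 f/f section went from 26.6 CPM within the epidermis to 101 CPM at 1 spot spacing, 91.7 at 2, 103 at 3 to 4 and 137 at 5 to 8. These bins include the site described further on, with 27.4% of the section's response gene UMIs, and the profile without it is not given here. Tlr7 reached its highest level at 2 spacings, with 25.8 CPM, against 3.59 in the epidermis and 8.81 at 1 spacing. In the K14-Cre section the response genes had 82.1 CPM in the epidermis, 109 at 2 and 81.3 at 5 to 8 spacings. Beyond 8 spacings they had 21.6 CPM (6 UMIs). The receptor genes of these K14-Cre spots had 9001, 11035, 4373 and 1849 CPM, so the background changed with distance, and its part in this profile was not tested. Receptor genes of the S1pr2 f/f section had 1780 CPM in the epidermis, 3622 at 2 and 2379 at 5 to 8 spacings. In the K14-Cre section Tlr7 had 2.49 CPM in the epidermis, 7.28 at 1, 33.6 at 2 and 28.6 at 5 to 8 spacings. At 5 to 8 spacings in the S1pr2 f/f section it had 9 UMIs (5.93 to 24.6 CPM).

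**Figure D4:**
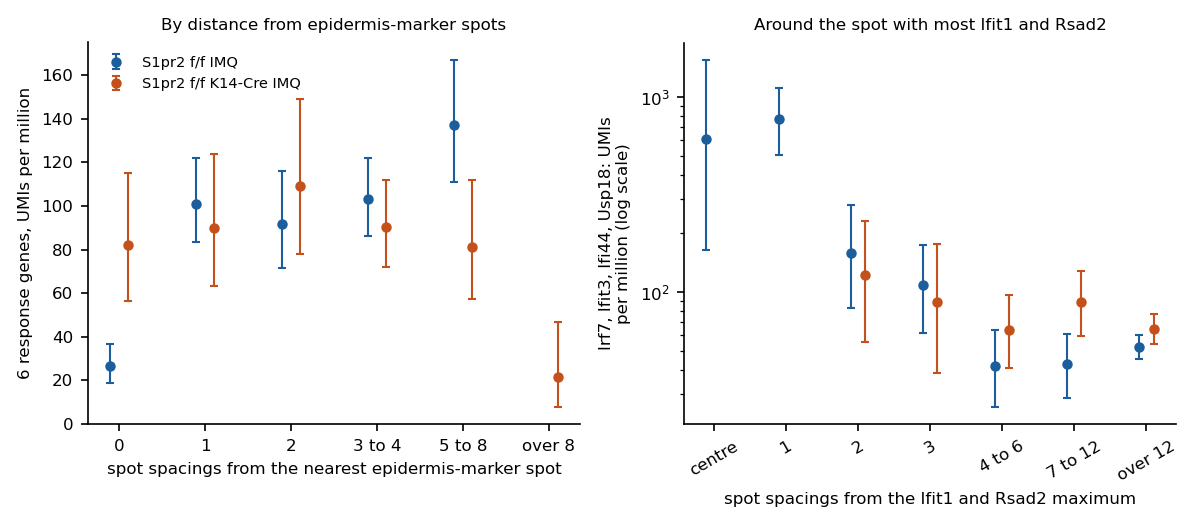
Left, CPM of the summed response genes by distance from the nearest spot with epidermis markers. Right, on a log scale, Irf7, Ifit3, Ifi44 and Usp18 summed by distance from the spot with most Ifit1 and Rsad2 UMIs. This maximum does not use the counts of these 4 genes, but the rule for it was made after the values had been seen. Bars are exact Poisson 95% intervals, and bins without a UMI (S1pr2 f/f beyond 8 spacings on the left, K14-Cre centre and ring 1 on the right) are not drawn; on the right the S1pr2 f/f level is high at the centre and ring 1 and reaches 41.6 at 4 to 6 spacings.

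A site of 3 spot spacings in radius stood apart in the S1pr2 f/f section. It was taken around the spot with the highest sum of Ifit1 and Rsad2 UMIs, a rule made after the values had been seen. All levels at the site are therefore a description, most of all those of these 2 genes and of any sum that holds them. The 37 spots of the site held 4.99% of the section's UMIs and 124 of the 452 response gene UMIs (27.4%), or 467 CPM against 65.0 CPM elsewhere. They held 34 of 65 Ifit1 UMIs and 31 of 75 Rsad2 UMIs. The other 4 response genes, whose counts the rule does not use, had 222 CPM there against 50.1 CPM elsewhere, 4.44-fold (3.28 to 5.91). The intervals here do not cover the choice of the site after the values had been seen. Ifit3 had 82.9 CPM in it against 13.3 elsewhere, 6.25-fold (3.67 to 10.2), Usp18 64.0 against 12.1, 5.30-fold (2.90 to 9.20), and Irf7 67.8 against 19.2, 3.53-fold (2.01 to 5.88). Ifi44 had 2 of its 30 UMIs there, both in 1 spot, and Tlr7 had 0 of its 74, which allows up to 0.972-fold its level elsewhere. The receptor genes were even, at 1.03-fold.

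The 3 richest spots of the section all lay at this site, with 20, 18 and 15 response gene UMIs, against at most 8 in any K14-Cre spot. The first, in the sebaceous region, had 8 Ifit1, 5 Rsad2, 3 Usp18, 2 Ifit3 and 2 Ifi44 UMIs, and the second, in the dermis region, 8 Rsad2, 6 Ifit1 and 4 Ifit3 UMIs. The third had 5 Ifit3, 4 Rsad2, 4 Usp18 and 2 Irf7 UMIs. With Ifit1 and Rsad2 left out, the other 4 response genes had 606 CPM in the centre spot (4 UMIs), 767 CPM in the 6 spots around it, 159 CPM at 2 spacings, 108 at 3 and 41.6 at 4 to 6. The site crossed layers, with 13 spots of the dermis, 12 of the sebaceous, 6 of the epidermis and 6 of the muscle region. It lay toward 1 end of the section, whose first 309 spots along its length held 252 of the 452 response gene UMIs in 40.9% of all UMIs (116 CPM).

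Further interferon-response genes followed the site. Among 39 other type I response genes that reached 30 UMIs, 26 had at least 2-fold the level elsewhere and none was at least 2-fold lower, with a median log2 ratio of 1.31, beside 8.49% of all 12322 genes and a median of 0.08. Cmpk2, a nucleotide kinase gene next to Rsad2, had 17 of its 48 UMIs there (10.4-fold, 5.42 to 19.4), and Ifit2, of the same family as Ifit1, 18 of 59 (8.35-fold, 4.52 to 14.9). Of the oligoadenylate synthetase family, Oasl2 had 40 of 169 UMIs (5.90-fold, 4.03 to 8.47) and Oas2 had 17 of 58 (7.89-fold, 4.20 to 14.2). Genes with high levels throughout the skin moved little: Ifitm3, an inhibitor of viral entry, was 1.54-fold and B2m, the light chain of MHC class I, 1.15-fold. Of 20 interferon gamma response genes 10 were at least 2-fold higher, among them Iigp1 with 25 of 105 UMIs (5.95-fold, 3.63 to 9.42), but Cxcl9, the gamma-induced neighbour of Cxcl10, had 1 of 28.

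Other markers at the site were given beside these values. Blood markers were 3.49-fold higher (3.28 to 3.71), with 1200 of 7743 UMIs, of which 1 lay in the centre spot. Macrophage markers were even, at 0.985-fold (0.901 to 1.07), dermis markers were 1.36-fold and sebaceous gland markers 1.59-fold higher, and plasmacytoid dendritic cell markers had 4 of 64 UMIs. Their part in the result was not tested. In the K14-Cre section, where Ifit1 and Rsad2 were near background, the same rule rested on 3 Ifit1 and 2 Rsad2 UMIs in its centre spot, held none of the 4 richest spots and cannot show whether such a site existed. Its 31 spots had 71.4 CPM of the other 4 response genes against 67.9 CPM elsewhere (1.05-fold, 0.600 to 1.73). Of 34 other type I response genes 4 were at least 2-fold higher and 3 lower, beside 8.11% of all 12851 genes that were higher. Of the 17 UMIs of these 4 genes at this site, 14 were of Irf7, out of its 66 (2.95-fold, 1.51 to 5.40). Ifit3 had 2 of 69 UMIs (0.327-fold, 0.0388 to 1.23), Usp18 1 of 40 (0.281-fold, 0.00694 to 1.66) and Ifi44 0 of 19. Some further genes were high at this site: Cxcl9 had 17 of 42 UMIs (7.45-fold, 3.78 to 14.4) and Bst2, the gene of tetherin, 57 of 238 (3.45-fold, 2.52 to 4.67). Without the site of each section the summed response genes had 65.0 CPM in the S1pr2 f/f and 80.5 CPM in the K14-Cre section. This is a log2 ratio of 0.31 (0.05 to 0.56) in place of -0.03. With the mean receptor gene also taken off, they had 51.6 and 43.4 CPM, a log2 ratio of -0.25. The dermis region of the S1pr2 f/f section remained higher than the other spots (log2 1.34).

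**Figure D5:**
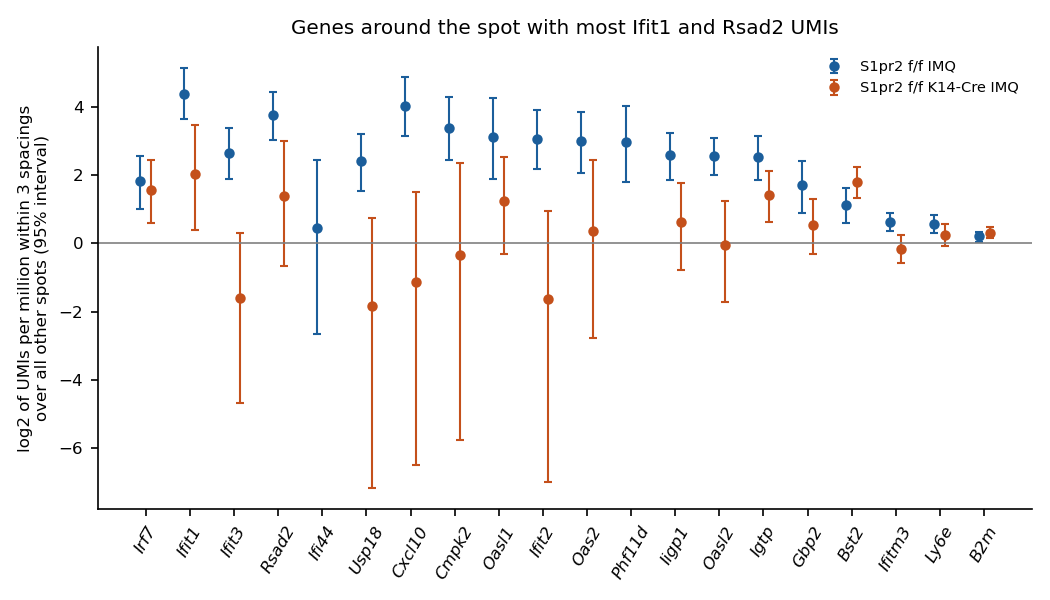
Log2 ratio of CPM within 3 spacings of the spot with most Ifit1 and Rsad2 UMIs over all other spots of the same section, with conditional binomial 95% intervals, for the response genes and for other interferon-response genes that were picked after their values were seen. In the S1pr2 f/f section Ifit1 (4.38), Cxcl10 (4.02) and Rsad2 (3.74) lie highest and Ifitm3 and B2m near 0; Ifi44 and Phf11d had no UMI at the K14-Cre site and are not drawn for it.

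The response genes shared spots in the S1pr2 f/f section. At least 2 different response genes were found in 48 spots (3.74%), which is 20.8% of the spots with any, and at least 3 in 11 spots, of which 9 lay at the site. Each of the 21 pairs of the 7 genes met in at least 1 spot, most often Irf7 and Ifit3, in 11 spots. Spots with Rsad2 had 284 CPM of the other response genes against 60.4 CPM in spots without it, 4.70-fold (3.58 to 6.10). This ratio was 4.50 (3.47 to 5.77) for Ifit3, 4.05 (2.98 to 5.41) for Ifit1, 3.12 (2.35 to 4.08) for Usp18, 2.50 (1.90 to 3.26) for Irf7 and 2.21 (1.46 to 3.22) for Ifi44. The receptor genes in the same spots stood at 0.880-fold to 1.29-fold.

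Without the spots of the site these ratios were lower. The ratio was then 1.72 (1.15 to 2.49) for Irf7, whose interval stayed above 1, and 1.53 (0.863 to 2.53) for Rsad2, 1.26 (0.724 to 2.06) for Ifit3, 1.20 (0.688 to 1.96) for Usp18 and 1.13 (0.556 to 2.05) for Ifi44. For Ifit1 it turned to 0.410 (0.0840 to 1.21), on 3 UMIs of the other genes in 20 spots. At least 2 different response genes were then left in 32 of 1245 spots (2.57%).

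Sharing was also read in the K14-Cre section. At least 2 different response genes lay in 12 spots (1.22%), or 8.96% of the spots with any, at least 3 in 2 spots, and 10 of the 21 pairs met, most often Ifit3 and Ifi44, in 4 spots. Spots with Rsad2 had 251 CPM of the other response genes against 72.4 CPM (3.46-fold, 1.86 to 5.94), and spots with Ifit3 had 128 against 55.0 CPM (2.32-fold, 1.38 to 3.72), where the receptor genes were 1.42-fold. Spots with Irf7 went the other way, with 3 UMIs of the other genes, or 18.7 against 62.6 CPM (0.298-fold, 0.0609 to 0.887), an interval that included 1 without the spots around the maximum (0.406-fold, 0.0828 to 1.21). Without these spots the Rsad2 ratio rested on 8 UMIs of the other genes in 3 shared spots (4.29-fold, 1.82 to 8.62). The richest spot, with 5 Irf7, 2 Rsad2 and 1 Ifit3 UMIs, entered both the Rsad2 and the Irf7 ratio. It gave all 3 UMIs behind the Irf7 ratio. The ratios for Ifit1, Ifi44 and Usp18 had intervals that included 1. The shares of spots in this paragraph and the former ones come with unequal depth, and their difference between sections was not tested.

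The response genes were not detectably higher in spots with Tlr7. Of the S1pr2 f/f section 16 of the 56 spots with Tlr7 also held a response gene, and these 56 spots had 67.7 CPM of the response genes against 86.1 CPM in the others (0.786-fold, 0.481 to 1.22), with the receptor genes at 1.29-fold. After thinning to 1000 UMIs the log2 ratio turned from -0.35 to 0.40. Within the dermis region the ratio was 0.648 (0.348 to 1.12), over 11 shared spots. Spots next to a Tlr7 spot had a log2 ratio of -0.50, and without the site the ratio over all spots was 1.04 (0.637 to 1.63). In the K14-Cre section 4 of the 27 spots with Tlr7 held a response gene, at 114 CPM against 82.3 CPM (1.39-fold, 0.657 to 2.60). Read from the other side, Tlr7 was higher in the 57 S1pr2 f/f spots with Ifit3, 37.1 against 12.4 CPM (2.98-fold, 1.46 to 5.59), though only 5 spots held both. None of the 11 S1pr2 f/f spots with at least 3 different response genes held Tlr7. This count says little, because only 4.37% of all S1pr2 f/f spots held Tlr7. Moreover, 9 of the 11 lay at the site, which had no Tlr7 UMI.

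The other genes of the pathway were compared between the sections in 5 lists, over genes with at least 30 UMIs. Of the interferon genes, 5 of 7 were at least 2-fold higher in the K14-Cre section, beside 26.1% of all genes and 77.3% of the receptor genes, with a median log2 ratio of 1.64 beside 0.34 over all genes. Ifna4, with 9 and 28 UMIs, Ifna11, with 10 and 25, and Ifnl3, with 10 and 21, lay within the receptor background of that section, with 85.9%, 79.2% and 67.9% of the receptor genes below them. Ifnab, with 22 and 37 UMIs, had 96.2% below it. Ifnz, an interferon zeta gene, was above nearly all with 154 and 179 UMIs (29.0 and 62.9 CPM, log2 1.12, 0.80 to 1.44). The receptors and their kinases were not past 2-fold, 0 of 13 in either direction with a median of -0.12. Beside this list and the next, 26.1% of all genes were at least 2-fold higher and 4.69% lower. Ifngr1 was at 0.01, Ifngr2 at -0.80 and Jak1 at -0.65, while Stat2 was at 0.53 and Socs3, a feedback inhibitor, at 0.65. Of the sensing and induction genes 0 of 22 passed, with a median of 0.11: Unc93b1, which carries Tlr7 to the endosome, was at 0.42 (0.29 to 0.55), Myd88 at -0.02 (-0.22 to 0.18), Irf3 at 0.12, Ifih1 at 0.52, Ticam1 at 0.45, Traf6 at -0.82 and Ddx58, the RNA sensor RIG-I, at -0.70.

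Few downstream genes were past 2-fold in either direction. Of 41 other type I response genes 3 were at least 2-fold higher and 2 lower, beside 26.1% and 4.69% of all genes. Their median was 0.04, beside 0.34 over all genes. The higher calls were thus rarer than over all genes, and the lower calls were near the share of all genes. Dhx58, a regulator of RNA sensing, was higher with 49 and 62 UMIs (log2 1.24, 0.68 to 1.81), and Ifi207 was lower with 223 and 53 UMIs (log2 -1.17, -1.63 to -0.73). Those with most UMIs differed less, with Ifitm3 at -0.44, Ly6e at 0.05 and Ifi27l2a at -0.31, while Slfn5 was at 0.81 and Sp100 at -0.92. Of 22 interferon gamma response genes 2 were at least 2-fold higher and 0 lower, beside the same shares of all genes, with a median of 0.08. Gbp2, a guanylate binding protein gene, had 124 and 138 UMIs (log2 1.06, 0.70 to 1.42), beside Gbp7 at 0.84 and Gbp4 at -0.85. Of the MHC class I genes H2-K1 was lower (log2 -0.94, -1.09 to -0.80), while H2-D1 was at 0.10 and B2m at -0.21.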

How the data were processed

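Each section's counts were deposited by the authors as unnormalised UMI numbers for every gene in every spot over tissue, with the spots' array positions. The submitters' processing notes name Space Ranger (version 3.0.0 in the file headers) and mm10. Deposited counts were summed over spots and divided by all UMIs of the same spots. The deposited array positions, row and column numbers of another kind than counts, gave distances in spot spacings.

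Clustering was run per section on spots of 50 UMIs or more, which left out 46 and 7 spots (scanpy 1.11.5, igraph 0.11.9, Python 3.11.15, 2000 variable genes, 20 components, 15 neighbours, Leiden resolution 1, seed 0) without the members and the pathway genes. A region was named for the tissue list, of 7, with the largest share of markers enriched 2-fold or more (at least 50% and 3 markers), unless its median depth was more than 3 times below the section's with none of these markers among its 10 leading genes, which left a cluster of 173 S1pr2 f/f spots with 7 of 7 muscle markers unnamed. This naming was restricted to these lists after the clusters were seen. TMM factors came from edgeR 4.0.16 in R 4.3.3. The scripts were tested on simulated data. With 1 section per genotype no test was run, and a gene counted as past the fold at 2-fold with at least 30 UMIs. Medians of lists used a pseudocount of 0.5 UMIs.

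The members and gene lists were chosen with earlier results of these data known. All members are named, and of each pathway list the 3 genes with most UMIs and the 2 highest and 2 lowest ratios among genes with at least 100 UMIs. Other names were chosen after their values were seen. Alternatives covered the clustering, region rule, depth, scaling, background, thresholds and the spots around the Ifit1 and Rsad2 maximum, the last of these, and counting each gene once per spot, chosen after seeing the data.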

Additional observations from a re-analysis of the deposited data

How the results depend on the processing

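Of 204 values recomputed under other settings, 173 moved by less than their 95% interval or count limit, 30 moved by more and 1 reversed. No paired analysis was possible because each genotype has 1 section. Over all spots the log2 ratio of the summed response genes, -0.03, became -0.40 with TMM factors, -0.60 with the receptor background taken off and 0.31 without the spots around the Ifit1 and Rsad2 maximum (-0.25 with the background also taken off), and Tlr7, 0.50, became -0.13 with each gene counted once per spot. In the epidermis the ratio between sections, 1.63, became 3.88 with Leiden resolution 0.5 and 0.77 in the 2 uppermost spots of each column. The S1pr2 f/f epidermis over other spots, -1.99, became -4.13 with Leiden resolution 0.5 and -1.35 with spots by marker share. For the other response genes in spots with a gene over spots without it in the S1pr2 f/f section, Tlr7, -0.35, became 0.40 after thinning to 1000 UMIs; Ifit1, 2.02, became 3.15 after thinning, 2.65 with at least 2 UMIs and -1.29 without the spots around the maximum; and Irf7, 1.32, became 1.84, 1.86 and 0.78. Spots with at least 2 UMIs of a response gene were 7.80% and 5.71%, in place of 18.0% and 13.7% with any. With at least 100 UMIs, 1 interferon gene was 2-fold higher, and 1 other type I gene was higher and 1 lower, and 1 gamma gene higher. With TMM factors 2 members were lower, as were 2 receptor and signalling, 4 sensing, 6 other type I and 2 gamma response genes, and 1 other type I and 1 gamma gene were higher. The share of all genes past 2-fold with TMM factors or with at least 100 UMIs is not given here. These counts therefore have no background beside them and are no result about the lists. The cause of these shifts was not tested. Small counts also limit single genes: in the K14-Cre section no response gene exceeded 69 UMIs.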

Other observations

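The spots that held the response genes were also read for markers of other cells, over spots with at least 1 UMI of a list against spots with none. In the S1pr2 f/f section the summed response genes had 90.9 CPM in the 1009 spots with macrophage markers, such as C1qa, and 20.5 CPM in the 273 spots without them (4.43-fold, 2.31 to 9.76), and the ratio was 3.30 (1.72 to 7.28) without the spots around the Ifit1 and Rsad2 maximum. Spots without these markers were shallow, with a median of 540 UMIs against 4481, and among spots with at least 1000 UMIs the ratio was 5.84 (2.66 to 16.0). These ratios do not hold the layer fixed. Of 8 macrophage markers 8 were enriched in the dermis region, with 170 CPM of the response genes, and 0 in either epidermis cluster, with 26.6 CPM together. The part of the layer was not tested. Dendritic and Langerhans cell markers gave 2.60-fold (1.25 to 6.52), and 4.20-fold (1.43 to 20.5) among spots with at least 1000 UMIs. Without the spots around the maximum their ratio was 1.98 (0.951 to 4.97), an interval that included 1. Endothelial markers gave 1.71-fold (1.41 to 2.07), mast cell markers 1.98-fold (1.64 to 2.39) and blood markers 1.95-fold (1.60 to 2.40). Without the spots around the maximum these were 1.60 (1.28 to 2.00), 1.47 (1.16 to 1.84) and 1.81 (1.43 to 2.29). T cell markers went the other way, at 0.779-fold (0.643 to 0.942). Neutrophil markers, at 1.14-fold (0.936 to 1.38), and plasmacytoid dendritic cell markers, at 0.667-fold (0.392 to 1.07) over 47 spots, had intervals that included 1. In the K14-Cre section macrophage markers gave 1.05-fold (0.689 to 1.68), dendritic and Langerhans cell markers 1.41-fold (0.963 to 2.13), endothelial markers 1.03-fold (0.788 to 1.34) and T cell markers 1.14-fold (0.842 to 1.52), all with intervals that included 1.

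No gene followed the response genes closely over spots. Among 2788 genes with at least 200 UMIs in each section, the highest correlations with their sum that held in both sections were those of Arpc1b (r = 0.14 and 0.14), Tmsb4x (0.15 and 0.11), Tgfb1i1 (0.11 and 0.11), Cst3 (0.12 and 0.10) and Efemp2 (0.11 and 0.10), over 978 and 870 spots that share the library and the depth of their section. In counts this sparse they are a description and no finding.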
